A study of Drosophila melanogaster with 3 samples.

Results

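The peaks described here lie at promoters from which protein-coding genes are transcribed in a single direction. They were recovered by chromatin immunoprecipitation and sequencing (ChIP-seq) of a protein made by the gene CG17361. A peak was kept when its summit, the point of highest signal, lay within 500 bp of transcription start sites (TSSs) of protein-coding genes on one strand only. A summit within 500 bp of the TSS of a gene annotated as ncRNA was left out. TSSs of other kinds did not exclude a summit. Among those kept, 8 had a tRNA TSS in that range, 6 a snoRNA TSS, 1 both and 8 a pseudogene TSS. This gave 2059 of the 7804 peaks of the main list (26.4%), at 1697 protein-coding genes. The other peaks included 1202 whose summits had coding TSSs on opposite strands within 500 bp, here called opposite-strand pairs, and 4201 distal peaks with no TSS in that range.

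The samples were whole Drosophila melanogaster embryos of 0 to 24 hours from a transgenic line that makes CG17361 protein fused to enhanced green fluorescent protein (eGFP). All 3 libraries belong to this 1 group and are labelled biological replicates 1, 2 and 3. Sonicated chromatin of 200 to 800 bp was precipitated with an antibody against GFP, and the authors called peaks against a control library that is not analysed here. The labels do not say whether the replicates came from separate embryo collections, so the spread between them may be technical. Embryos of this age range hold many stages and every tissue at once, and the peak lists do not say in which cells the tagged protein was bound. No read numbers were among the data used, and sequencing depth is therefore unknown for all 3 libraries.

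CG17361 encodes a zinc finger protein of the ZAD family, a large insect family, several members of which are known to bind DNA at promoters and at boundaries of chromatin domains. Promoters of Drosophila are known to come in broad kinds. Those of genes active in most cells often carry the DNA replication-related element (DRE), to which the factor DREF binds, and the core promoter elements named Ohler motifs 1, 6 and 7, the first of which is bound by M1BP. Those of regulated genes more often carry a TATA box, an initiator or GAGA elements. GAGA elements are bound by the GAGA factor, which keeps promoters open and holds paused RNA polymerase II. A promoter that fires in a single direction gives each summit a side, so upstream and downstream can be told apart.

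The sequences below show features on which the results turn, A/T-rich summits, the DRE and Ohler motif 1. They were read from the RefSeq release 6 assembly, which has the coordinates of dm6, and are written 5′ to 3′ in the direction of transcription. Each is centred on a summit and reaches 50 bases to each side. The first 3 are among the strongest peaks found in every replicate, and in the first 2 the capitals mark the longest run of A and T. A run of equal length that ends the CG14100 sequence is not in capitals. CG14100 lies at chr3L:19590566-19590666 on the minus strand, with the summit 92 bp upstream of the TSS and 29.7% GC. CG3961 lies at chr3L:18890762-18890862 on the minus strand, with the summit 329 bp upstream and 19.8% GC. The summit at msi, on the plus strand at chr3R:25515831-25515931, is 237 bp upstream in sequence of 15.8% GC, and its capitals mark 2 copies of the word TTTAAAAA, read on the other strand.
CG14100: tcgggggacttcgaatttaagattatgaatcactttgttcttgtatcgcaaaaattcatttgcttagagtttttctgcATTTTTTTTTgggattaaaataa
CG3961: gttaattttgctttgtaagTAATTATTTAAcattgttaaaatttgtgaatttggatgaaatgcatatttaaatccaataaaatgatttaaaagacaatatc
msi: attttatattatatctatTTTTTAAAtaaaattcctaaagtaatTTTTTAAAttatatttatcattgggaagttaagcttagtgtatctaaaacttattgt

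A smaller group of summits lay at the TSS itself and held the DRE. The examples are the strongest members with a DRE, at eEF1gamma (chr3R:29220080-29220180, plus strand), which encodes a translation elongation factor subunit, and at RpS10b (chrX:19597916-19598016, plus strand), which encodes a protein of the small ribosomal subunit. The DRE, TATCGATA, is in capitals. The last sequence, at EndoA (chr3R:18906489-18906589, plus strand), which encodes endophilin A of synaptic vesicle endocytosis, has Ohler motif 1 in capitals. Their summits lie 42, 65 and 70 bp upstream of the TSS. Motif 1 was not confined to summits at the TSS. A stronger peak with motif 1, at CG42271 (signal 335, against 206 at EndoA), has its summit 221 bp upstream and is not shown.
eEF1gamma: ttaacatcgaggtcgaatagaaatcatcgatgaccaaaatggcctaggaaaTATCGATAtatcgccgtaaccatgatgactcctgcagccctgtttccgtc
RpS10b: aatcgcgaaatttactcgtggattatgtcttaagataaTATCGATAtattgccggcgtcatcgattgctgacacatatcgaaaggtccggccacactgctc
EndoA: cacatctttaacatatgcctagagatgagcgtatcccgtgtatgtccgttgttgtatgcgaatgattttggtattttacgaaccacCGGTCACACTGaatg

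The summits lay mostly upstream of the nearest coding TSS. Of the 2059 summits, 80.3% were upstream of the nearest coding TSS, at a median position of 154 bp upstream (quartiles at -282 and -37 bp, where negative values are upstream). In the replicates' own lists, which held 1638, 980 and 1539 such peaks for replicates 1, 2 and 3, the share was 84.1%, 88.6% and 83.0%, or 85.2% ± 2.94 (SD, n = 3). The share was above 50% in 3 of 3 replicates by 35.2 ± 2.94 percentage points. An exact two-sided sign-flip permutation test over 3 replicates cannot give a p below 0.25, and gave this value for each of 13 comparisons made between replicates' lists (0.25 also after Benjamini-Hochberg adjustment). By this test no comparison here could pass a threshold of 0.05, and the replicates' values and directions are given in its place. Summits of opposite-strand pairs were upstream of the nearest TSS in 76.6% of cases in the main list. In the replicates the upstream share of the single-direction promoters was higher than that of the pairs by 6.76, 3.68 and 4.70 percentage points.

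The number of peaks per 50 bp in the main list was highest between 150 and 100 bp upstream, with 230 peaks, next to 222 between 200 and 150 bp upstream. In the lists of replicates 1, 2 and 3 it was highest at the second of these places, with 203, 148 and 195 peaks, against 177, 133 and 180 at the first. In the main list it fell away steeply past the TSS, with 107 peaks in the first 50 bp downstream and 31 between 150 and 200 bp downstream. Just inside the 500 bp limit, at 451 to 500 bp from the TSS on either side, stood 104 peaks with a median signal of 223. Just outside it, at 501 to 550 bp, stood 87 with a median of 215. By annotation, 1012 summits were intergenic, 548 lay in an intron of the nearest gene (as happens where another TSS of the same gene is farther upstream) and 328 in its 5′ untranslated region. Only 24 lay in its coding exons and 5 in coding exons of another gene. The remaining summits were in introns (77) or 3′ untranslated regions (46) of another gene, or in noncoding exons (19).

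**Figure D1:**
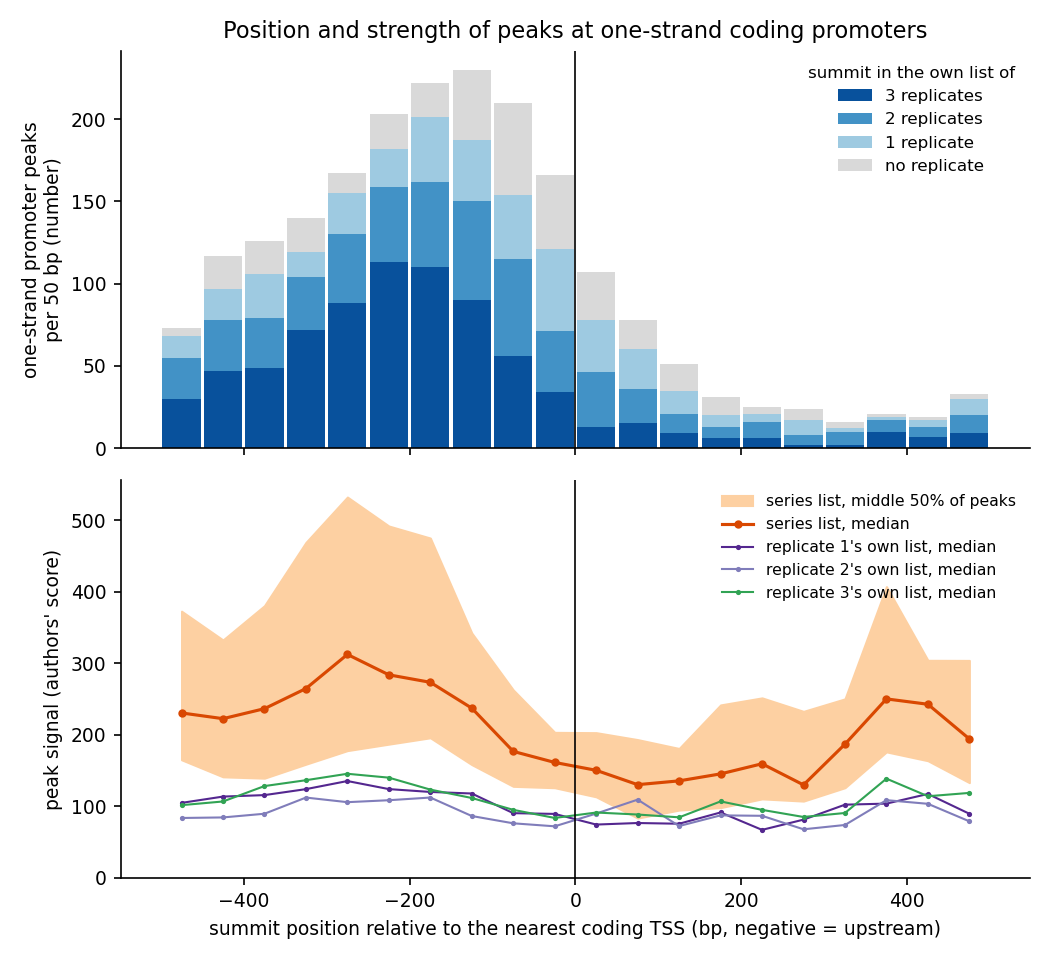
Upper panel, number of peaks at single-direction coding promoters per 50 bp by summit position relative to the nearest coding TSS, stacked by the number of replicates whose own list holds the summit. Lower panel, median peak signal (the authors' score) per 50 bp in the series list, with its middle 50%, and in each replicate's list. In the series list peaks are most numerous 150 to 100 bp upstream and the median signal is highest 300 to 250 bp upstream. In replicate 2 the median is higher 350 to 300 bp (112) and 200 to 150 bp upstream (112) than 300 to 250 bp upstream (106).

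Peaks upstream of the TSS were stronger than those at it and recurred more often. The summits were split into those over 100 bp upstream (1278, here the upstream peaks), those within 100 bp of the TSS (562) and those over 100 bp downstream (219), a split chosen after the distribution had been seen. The peak signal, a score of the authors on a scale that the sources used here do not give, had a median of 258 in upstream peaks, 161 in peaks at the TSS and 160 in downstream peaks. In the replicates' own lists the upstream median was 121, 98.6 and 123 for replicates 1, 2 and 3, against 86.1, 77.4 and 89.9 at the TSS. The difference was 29.7 ± 7.35 (SD, n = 3), higher upstream in 3 of 3 replicates (exact sign-flip permutation p = 0.25, the smallest possible). Of the upstream peaks, 46.9% (95% Wilson interval 44.2 to 49.6) were found in the own list of each replicate, against 21.0% (17.8 to 24.6) of peaks at the TSS and 23.3% (18.2 to 29.3) of downstream peaks. The share over the whole main list was 36.9%. By 50 bp steps the median signal of the main list was highest between 300 and 250 bp upstream, at 313, and stood at 161 in the last 50 bp before the TSS and at 130 between 50 and 100 bp after it. In the replicates' lists the values at these 3 places were 135, 89.4 and 76.7 for replicate 1, 106, 72.1 and 109 for replicate 2, and 146, 83.8 and 88.6 for replicate 3. The last value of replicate 2 rests on 11 peaks.

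Of all 2059 peaks, 768 (37.3%, interval 35.2 to 39.4) were found in every replicate's own list, 535 in 2, 396 in 1 and 360 in none. This share is close to the 36.7% of all other peaks in the main list and to the 36.9% of the list as a whole, and the counting interval holds both. Replicate 1 held 69.8% of the summits, replicate 2 held 44.6% and replicate 3 held 68.7%. Median signals were 408 for the peaks found in every replicate and 125 for those found in none. The main list was filtered on the ranks of replicates 1 and 3 and its signals come from all 3, so recurrence and signal are linked by its making. In the ranked lists, which keep weaker peaks, 98.3%, 79.0% and 98.8% of the summits had a peak in replicates 1, 2 and 3.

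Peaks at single-direction promoters were weaker than those at opposite-strand pairs. The median signal was 211 at single-direction promoters and 254 at pairs in the main list. In the replicates it was 107, 92.4 and 109, against 118, 101.3 and 120 at pairs. The difference was -10.3 ± 1.21 (SD, n = 3), lower at single-direction promoters in 3 of 3 replicates. Against distal peaks, whose median was 206 in the main list, the difference was 7.30 ± 5.19 in the replicates, higher at single-direction promoters in 3 of 3. Both comparisons had the smallest possible exact sign-flip permutation p of 0.25. A summit was found in every replicate for 37.3% of single-direction promoter peaks, against 46.2% of pairs and 33.9% of distal peaks.

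Some peaks lay beside a stronger one. The intervals of 364 of the 2059 peaks (17.7%) overlapped a stronger peak of the main list, whose summit lay a median of 203 bp away, and among all other peaks 15.1% did so. These 364 peaks had a median signal of 113, against 240 for the 1695 that overlapped no stronger peak, and were found in every replicate in 17.9% of cases, against 41.5%. The commonest interval width, 610 bp, was shared by 1124 of the 2059 peaks. Among the 1695 the median signal was 286 upstream, 177 at the TSS and 208 downstream. The order of upstream and TSS peaks was thus the same without the 364.

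The 20 strongest peaks found in every replicate show the upstream position. Of these, 19 had the summit upstream, 17 by more than 100 bp, and the distances ran from 44 to 363 bp. The summit was intergenic at 12 and in an intron at 7. The signal, taken for each replicate from the strongest peak of its ranked list over the summit, ran from 315 to 458 in replicate 1, from 212 to 370 in replicate 2 and from 311 to 481 in replicate 3. High values in every replicate follow from how the 20 were chosen.

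The strongest of them stood at CG14100 on 3L, with signals of 458, 370 and 481 in replicates 1, 2 and 3. Next came cu (curled), which encodes the Drosophila nocturnin, with 404, 306 and 449 and the summit 286 bp upstream. At px (plexus), a gene of wing vein patterning, the signals were 388, 345 and 410, 200 bp upstream within an intron of the gene itself. Signals at Ugalt, the gene of the Golgi UDP-galactose transporter, were 363, 345 and 404, with the summit 44 bp upstream, the shortest distance of the 20. The summit near gish, which encodes a casein kinase 1 gamma, had 346, 297 and 417, 154 bp upstream. At aos (argos), whose product is a secreted inhibitor of the EGF receptor, the values were 416, 251 and 430, 238 bp upstream within an intron of another gene. The msi gene, which encodes the RNA-binding protein musashi, had 368, 302 and 398.

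The other named genes of the 20 have varied roles. The gene C1GalTA, for the core 1 galactosyltransferase of O-glycans, had 398, 302 and 351 at 168 bp upstream. Rme-8, an endosomal DnaJ protein, had 363, 325 and 333 at 201 bp upstream. The formin gene Fhos had 372, 272 and 355 at 329 bp upstream. RapGAP1, which switches off a Rap GTPase, had 328, 297 and 373 at 198 bp upstream. The cGMP-dependent kinase gene for (foraging) had 340, 267 and 358 at 363 bp upstream, and nrv1, a beta subunit of the sodium pump, had 411, 212 and 311 at 362 bp upstream. PNPase, for the mitochondrial polynucleotide phosphorylase, was the exception in position, with 315, 284 and 397 and its summit 83 bp downstream, in the 5′ untranslated region. The other members of the 20 were CG3961, CG31145, CG18549, CG1635, CG1142 and Tina-1, with main-list signals from 975 to 1104. In 19 of the 20, replicate 2 had the lowest value.

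Sequence at the summits was poor in G and C, and the sides of the dip were unequal. Windows that reached 50 bp to each side of a summit held 33.9% GC on average. Equal windows held 37.5% at 250 bp upstream along transcription and 45.2% at 250 bp downstream. In the replicates' own lists the summits had 32.9%, 31.45% and 33.6% GC and the flanks on both sides together 41.3%, 42.8% and 41.5%, a difference of -9.21 ± 1.84 percentage points (SD, n = 3), lower at the summit in 3 of 3 replicates. The downstream flank had more GC than the upstream flank by 7.69 ± 0.365 percentage points. This order was not particular to these peaks. Opposite-strand pairs had 39.2% GC in the upstream and 45.6% in the downstream flank in the main list. Single-direction promoters without a peak had 37.5% between 250 and 200 bp before the TSS and 46.7% between 200 and 250 bp after it. The dip was deepest at the upstream peaks. Their summits had 30.7% GC in the main list, and in the replicates the difference from the flanks was -11.6, -13.5 and -11.7 percentage points. Summits at the TSS had 39.3% GC, and there the difference was 0.870, -1.85 and 1.21 percentage points, with no common direction. At these TSS peaks the lowest GC content lay 200 bp upstream of the summit, at 32.3%. Opposite-strand pairs had 31.7% GC at the summit and a difference of -12.1 ± 1.496 percentage points from their flanks in the replicates.

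**Figure D2:**
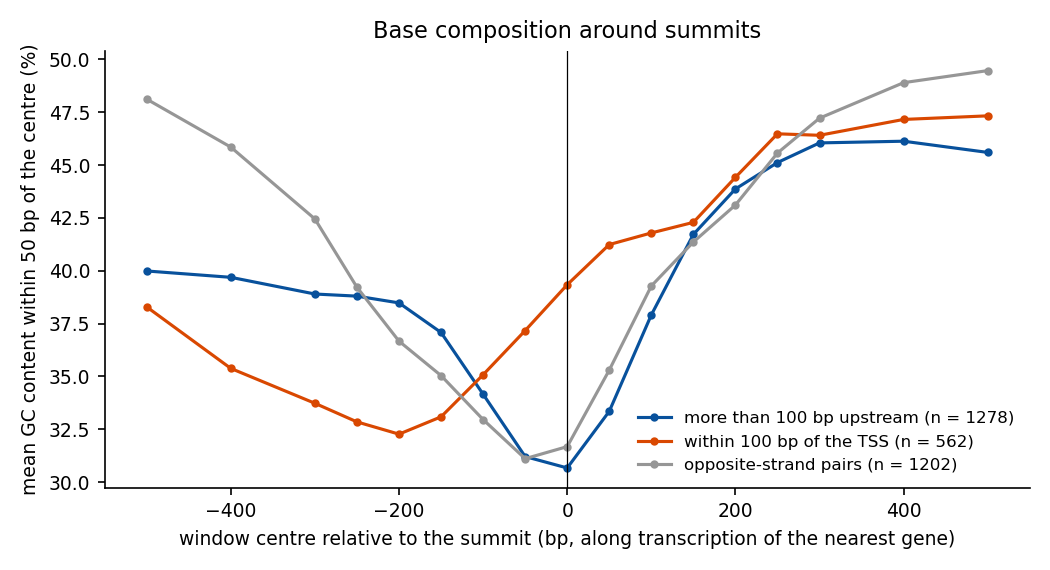
Mean GC content within 50 bp of a window centre, by position of that centre relative to the summit, along transcription of the nearest gene, for peaks over 100 bp upstream of the TSS, peaks within 100 bp of it and opposite-strand pairs. Upstream peaks have their minimum of 30.7% at the summit, whereas peaks at the TSS have theirs of 32.3% 200 bp upstream of it.

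The promoters of upstream peaks differed from other single-direction promoters around the TSS as well. They were set against 8696 promoters of this kind with no peak of the main list within 500 bp, 1 per gene. Between 250 and 200 bp upstream of the TSS the GC content was 33.7% at promoters with an upstream peak and 37.5% at promoters without a peak. In the last 50 bp before the TSS the order was the other way round, 47.6% with an upstream peak and 43.0% without. Promoters from the replicates' own lists had 33.5% ± 0.302 and 47.9% ± 0.426 (SD, n = 3) at these places. Promoters whose peak lay at the TSS had 32.0% GC at the first place and 43.7% at the second. The places read in the replicates, here and below for GAGA elements and the TATA box, were chosen after the main-list profiles had been seen. Between 250 and 200 bp upstream the GC content of promoters with an upstream peak was lowest. The other places are those where promoters with an upstream peak differed most from promoters without a peak. The main list draws on the same libraries, so the replicates' values at these places are not an independent check.

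GAGA elements stood next to the upstream peaks more often than under them, as they did at opposite-strand pairs and distal peaks. The word GAGAG, read on both strands, was present within 50 bp of 8.998% of upstream summits (interval 7.55 to 10.7), against 17.3% of windows 250 bp upstream and 22.1% of windows 250 bp downstream. In the replicates the share at upstream summits was lower than in the flanks by 12.5 ± 1.13 percentage points (SD, n = 3). Promoters without a peak, read at the distances of the upstream summits, had GAGAG in 11.7% of windows, a smaller gap than that to the flanks. The shares were not adjusted for base composition, which was 30.7% GC at upstream summits and 42.0% in their flanks. Opposite-strand pairs had GAGAG at 5.66% of summits and 9.61% of flanks, and distal peaks at 8.43% and 15.6%. Measured from the TSS, the share of upstream-peak promoters with GAGAG was highest between 100 and 50 bp before the TSS. There it was 19.6% for promoters with an upstream peak, 6.24% for promoters with a peak at the TSS and 9.11% for promoters without a peak. Upstream peaks of the replicates' own lists gave 19.3%, 23.0% and 21.4% at this place, all above the value of promoters without a peak, and peaks at the TSS gave 5.93%, 1.22% and 7.41%, all below it. Within 100 bp of the TSS on either side, 39.5% of upstream peaks and 24.6% of promoters without a peak had GAGAG.

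TATA boxes at their usual place were scarce at promoters with a peak. The pattern searched, TATAAA preceded by C or G on either strand, was found in the last 50 bp before the TSS at 3.17% of promoters with an upstream peak and 2.14% of those with a peak at the TSS, against 8.74% of promoters without a peak. In the replicates these shares were 3.10% ± 0.175 and 2.08% ± 0.373 (SD, n = 3). At the upstream summits themselves the pattern was more frequent than in their flanks, at 8.61% (interval 7.19 to 10.3) against 4.54%, in sequence that is rich in A and T. Summits and flanks of opposite-strand pairs had it in 6.99% and 3.16%, and those of distal peaks in 7.52% and 3.58%.

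**Figure D3:**
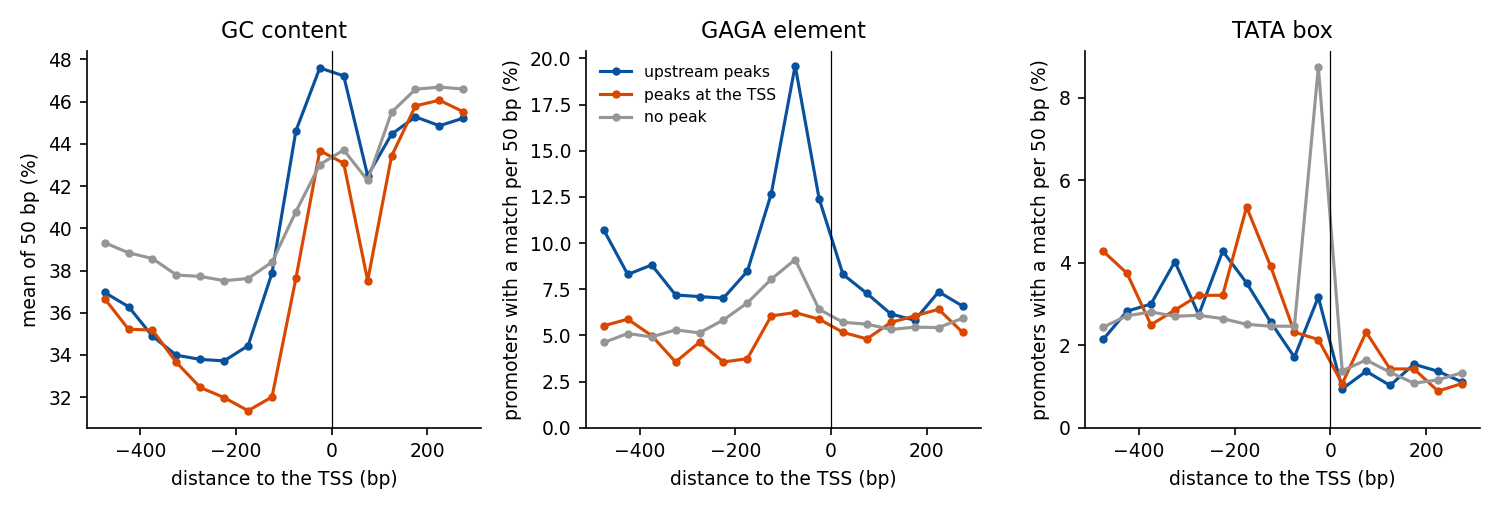
GC content, GAGA element (GAGAG) and TATA box along the promoter in steps of 50 bp, for 1168 promoters with an upstream peak, 561 with a peak at the TSS and 8696 without a peak. The GAGA element reaches 19.6% of promoters with an upstream peak 100 to 50 bp before the TSS, and the TATA box reaches 8.74% of promoters without a peak in the last 50 bp.

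Words of A and T were more frequent at the upstream summits than in their flanks, as they were at other classes of peak. The word TTTAAAAA, taken with ATATTTTA from an earlier look at all peaks of these data, was within 50 bp of 8.998% of upstream summits (interval 7.55 to 10.7) against 3.09% of flanks, and ATATTTTA of 5.87% (4.71 to 7.29) against 2.07%. Over all summits in the replicates' lists, TTTAAAAA was more frequent at the summit than in the flanks by 3.72, 6.38 and 4.65 percentage points. Promoters without a peak, read at the distances of the upstream summits, had TTTAAAAA in 4.57% of windows and ATATTTTA in 3.39%. At opposite-strand pairs TTTAAAAA was within 50 bp of 9.73% of summits and 3.33% of flanks, and at distal peaks of 6.62% and 1.76%. For ATATTTTA the shares were 7.32% and 2.50% at pairs and 6.69% and 1.55% at distal peaks. When all words of 8 bases were ranked by their excess at upstream summits on arms 2L, 2R and 4, each of the first 10 held only A and T, apart from AAAACTTA at rank 9. On the remaining arms 3L, 3R and X each of the 10 was again more frequent at summits than in flanks, such as TTAAAAAA at 8.54% against 2.74% and AATATATT at 4.08% against 1.15%. Word shares were not adjusted for base composition, which was 30.7% GC at upstream summits and 42.0% in their flanks. With such a difference the check on other arms could hardly fail for words of A and T.

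Summits at the TSS carried a different set of elements. The DRE, TATCGATA, was within 50 bp of 9.43% of these summits (53 of 562, interval 7.28 to 12.1) against 1.16% of their flanks, and within 50 bp of 1.02% of upstream summits against 1.49% of their flanks. Promoters without a peak had it in 2.24% of windows at the distances of the TSS summits. Windows around upstream summits do not reach the last 50 bp before the TSS. Read within 100 bp of the TSS itself, the DRE was present for 5.63% of upstream peaks and 15.8% of TSS peaks. Of promoters without a peak, 4.09% had it there. In the replicates' lists the share at TSS summits was 6.50%, 6.71% and 6.88%, against 1.23%, 0.678% and 1.48% at upstream summits, a difference of 5.56 ± 0.409 percentage points (SD, n = 3). Of the 70 matches in all members, 60 lay upstream of the TSS, at a median of 44.5 bp before it, and 55 lay within 100 bp of it. Over all 2059 summits the share was 3.25%, against 1.51% in flanks, and in the replicates the difference was 1.13, 0.561 and 1.56 percentage points. The main-list difference of 1.75 percentage points was 0.422 in the list without replicate 1 and 0.620 in the list without replicate 3.

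Ohler motif 1 was within 50 bp of 2.49% of TSS summits (14 peaks, interval 1.49 to 4.14) against 0.0890% of flanks, and of 0.235% of upstream summits. Its excess at TSS over upstream summits was 2.47, 0.813 and 4.20 percentage points in the replicates. Read within 100 bp of the TSS itself, motif 1 was present for 4.54% of upstream peaks and 7.83% of TSS peaks. Of promoters without a peak, 2.05% had it there. Ohler motif 6 was found at 1.96% of TSS summits against 0.267% of flanks, and Ohler motif 7 at 5.52% against 1.16%. Promoters without a peak had motif 1 in 0.900%, motif 6 in 0.527% and motif 7 in 1.90% of windows at the same distances. Of the 10 words of 8 bases with the largest excess at TSS summits, 5 overlap the DRE, such as ATCGATAA and TATCGATA itself, and the seventh was GGTCACAC, a part of motif 1, which on 3L, 3R and X was present at 4.33% of summits and 0.155% of flanks. GAGAG was at 9.96% of TSS summits and 10.7% of their flanks, within the counting interval of 7.75 to 12.7, and the replicates gave 14.1%, 6.10% and 11.6% at the summits against 10.4%, 13.4% and 11.1% in the flanks, with no common direction.

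**Figure D4:**
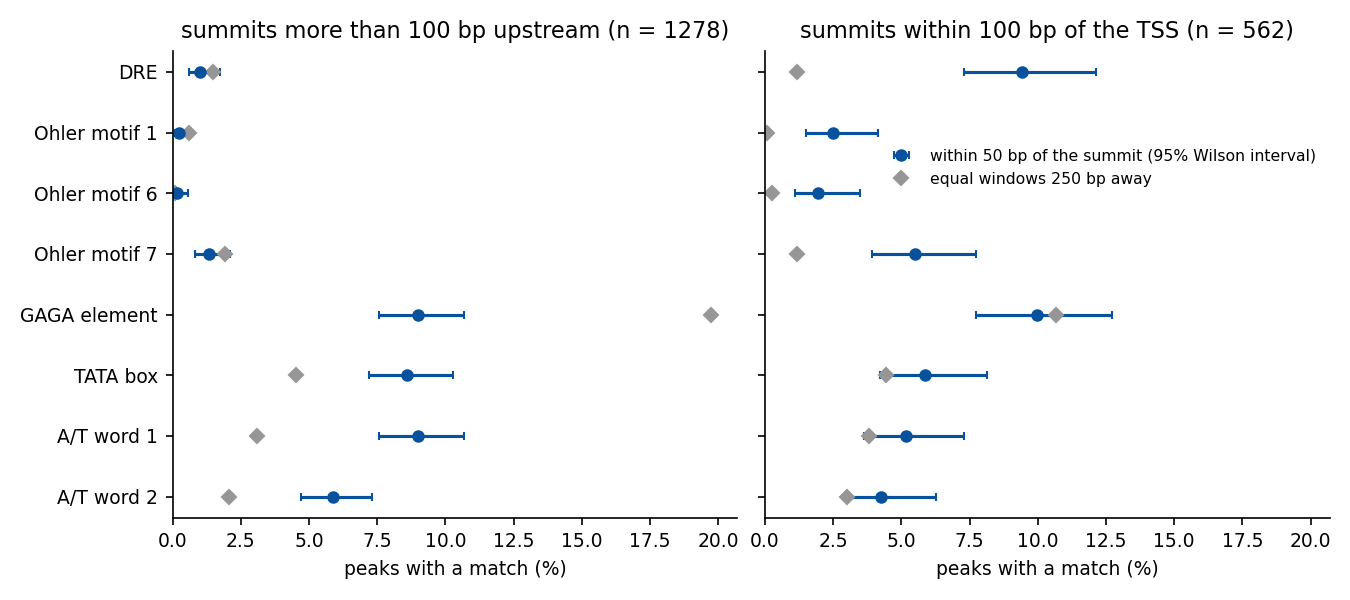
Share of peaks with each sequence element within 50 bp of the summit, with its 95% Wilson interval, and in equal windows 250 bp to each side, for upstream peaks and for peaks at the TSS. The A/T words are TTTAAAAA and ATATTTTA. The DRE and Ohler motifs 1, 6 and 7 exceed the flanks at the TSS, while the A/T words and the TATA box exceed them upstream.

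Composition and position differed along the range of peak strength. The peaks were put into 5 groups of 411 or 412 by signal, from up to 130 in the weakest to at least 407 in the strongest. From weakest to strongest, the mean GC content at the summit was 39.5%, 36.6%, 33.6%, 31.5% and 28.2%. The share of summits over 100 bp upstream was 38.6%, 51.7%, 61.8%, 73.1% and 85.2%, and the share with a DRE was 5.10%, 4.37%, 3.65%, 1.94% and 1.21%, each in steps of one direction. Motif 1 had no such order, with 0.728%, 1.70%, 1.22%, 0.485% and 0%. The share of flanks with GAGAG was 13.2%, 12.01%, 12.5%, 17.7% and 28.2%, higher in the strongest 2 groups. Position, GC content and strength thus moved together in this list, and their separate parts were not tested.

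The strongest peaks at the TSS, after CG14100, Ugalt and PNPase, were those at MFS18, with signals of 318, 294 and 357 in replicates 1, 2 and 3, at GstE13, a glutathione S-transferase gene, with 312, 286 and 349, and at Hpf1, with 330, 281 and 329. The strongest downstream peaks were at Ada2b, which encodes a subunit of a histone acetyltransferase complex, with 365, 202 and 359 and a summit 458 bp inside the gene, and at CG31612, with 308, 227 and 339.

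The genes with a peak were longer and had more TSSs than coding genes as a whole. Their median length was 5113 bp and 53.3% had more than 1 TSS, against 2166 bp and 26.5% of all protein-coding genes. Of all 13945 coding genes 12.2% had a peak of this kind. The share was 7.74% (interval 7.24 to 8.27) for genes with 1 TSS, 17.7% for genes with 2, 30.7% for genes with 3 and 53.9% (49.2 to 58.5) for genes with 4 or more. In the replicates' own lists, where 9.42%, 6.48% and 9.51% of coding genes had such a peak, the share was 5.09% ± 1.21 for genes with 1 TSS and 39.2% ± 5.54 (SD, n = 3) for genes with 4 or more. A gene with more TSSs offers more places within 500 bp of one. By length it was 5.94% up to 2 kb, 13.5% from 2 to 10 kb and 28.9% above 10 kb. By chromosome arm the share of genes ran from 10.6% on 3R to 13.9% on X, with 18 of 80 genes (22.5%, interval 14.7 to 32.8) on chromosome 4.

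Among 29 gene lists, the share of genes with a peak was highest for small heat shock proteins and chaperones, cytosolic ribosomal proteins, the Notch pathway and nuclear receptors. The lists were chosen with earlier results of these data known, so their shares are descriptions. For cytosolic ribosomal proteins it was 38 of 91 genes (41.8%, interval 32.2 to 52.0) in the main list and 41.8%, 24.2% and 36.3% in the lists of replicates 1, 2 and 3, against 9.42%, 6.48% and 9.51% of all coding genes. A further 32 of these genes had a peak only at an opposite-strand pair. Their mean number of TSSs was 1.71, against 1.41 over all coding genes, and their median length was 1318 bp. The share was 27.5% in the list without replicate 1 and 17.6% for peaks found in every replicate, where fewer peaks remain. With TSS limits of 250 and 1000 bp it was 57.1% and 26.4%. The share of all coding genes is not given for these alternatives, so their values cannot be set against a background.

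Ribosomal protein genes were bound at the TSS rather than upstream. The strongest peak of each gene lay within 100 bp of the TSS at 29 of the 38 genes and over 100 bp upstream at 9. The highest signals were those of RpS10b (567, summit 65 bp upstream), RpS7 (546, 46 bp upstream), RpL23A (480, 75 bp upstream) and RpS4 (475, 131 bp upstream), each found in every replicate. Peaks at the TSS of these genes had a median signal of 240, against 158 for the other peaks at the TSS. These genes are known to start transcription at a pyrimidine-rich TCT initiator, here searched as CTTT with 2 pyrimidines on each side, on the gene's strand within 10 bp of the TSS. It was present for 9 of 31 ribosomal protein peaks at the TSS (29.0%, interval 16.1 to 46.6) and for 5 of the 531 others there (0.942%). The DRE was within 50 bp of the summit in 5 of the 31 (16.1%, interval 7.09 to 32.6) and 48 of the 531 (9.04%), which the counting intervals do not separate.

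Among other lists of genes used in most cells, only mitochondrial ribosomal proteins had an interval that did not hold the background of 12.2%. They had 3 of 73 (4.11%, interval 1.41 to 11.4), mRpL4, mRpL19 and mRpL13, and a further 34 had a peak only at an opposite-strand pair. These genes are short, with a median of 909 bp and a mean of 1.1 TSSs. Their interval holds the 5.94% of all genes up to 2 kb and the 7.74% of all genes with 1 TSS. Respiratory chain subunits had 9 of 84, with ND-49, UQCR-11, ND-AGGG and ND-B22 the strongest at 170 to 251. The proteasome had 4 of 48, led by the lid deubiquitinase gene Rpn11 (422). Translation initiation factors had 8 of 44, led by eIF3c (552), eIF2D (327), eIF5B (318) and eIF4G1 (205). Splicing factors had 1 of 29 (Prp39), aminoacyl-tRNA synthetases 1 of 33 (AlaRS), Mediator subunits 1 of 25 (MED21), RNA polymerase subunits 2 of 31 (Polr2F and Polr1D) and general transcription factors 3 of 25 (TfIIEbeta, TfIIEalpha and Tbp). None of 21 nucleoporin and none of 13 kinesin genes had such a peak, while 8 and 3 of them had one at an opposite-strand pair, and replicate 2's own list held 1 gene of each. DNA replication genes had 3 of 20, Orc2, geminin and RfC4, with signals from 125 to 210. Vesicle transport genes included Rab5, the GTPase of early endosomes (531, found in every replicate), Rab11 and Rab35 among 33 Rab genes, and Vps15, Vps11 and Vps20 among 27 sorting genes. Atg13 (348), Atg16, Atg8a and Atg14 were the 4 of 20 autophagy genes.

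Of the developmental lists, the Notch pathway had 6 of 15 genes with a peak (40.0%, interval 19.8 to 64.3), and 33.3%, 20% and 33.3% in the replicates. They included neur, a ubiquitin ligase that acts on the ligand Delta (610, summit 257 bp upstream), numb, an inhibitor of Notch (527, 259 bp upstream), mam, a coactivator of Notch target genes (203, 331 bp upstream), and the ligase gene mib1 (199, 60 bp upstream). For 5 of the 6 genes the strongest summit was over 100 bp upstream. Nuclear receptors had 7 of 21 (33.3%, interval 17.2 to 54.6), led by Hnf4, a regulator of lipid metabolism (766, 273 bp upstream), Eip75B, an ecdysone-induced receptor (604, with the summit at the TSS), eg (374, 318 bp upstream) and EcR, the ecdysone receptor (225, 440 bp upstream). In the replicates the share was 28.6%, 14.3% and 28.6%. These genes are long, with a median of 22386 bp and a mean of 2.38 TSSs.

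Small heat shock proteins and chaperones had 7 of 16 (43.8%, interval 23.1 to 66.8) in the main list and 31.2%, 37.5% and 37.5% in the replicates. The strongest 4 were at Hsp27 (868, summit 171 bp upstream), Hsp26 (396, 146 bp upstream), Hsp83, the Drosophila Hsp90 (364, 99 bp downstream), and Hsp22 (260, 458 bp upstream), and these 4 were found in every replicate. Polycomb and trithorax group genes had 5 of 24, led by pho, which encodes a DNA-binding recruiter of Polycomb complexes (620, 245 bp upstream), ph-d (249), Pc (163) and Utx (151). Insulator and promoter factors had 3 of 17, namely Trl, which encodes the GAGA factor (362, 175 bp downstream), CTCF (310) and pita (183). Segmentation genes had 4 of 24, nkd, an inhibitor of Wingless signalling (626), the translational repressor gene pum (357), bcd (260) and ptc, the Hedgehog receptor gene (154), all over 100 bp upstream. The Hox genes had 1 of 8, Antp (291, 347 bp upstream). For Polycomb and trithorax group, insulator and promoter factor, segmentation and Hox genes the shares were 20.8%, 17.65%, 16.7% and 12.5%. Their intervals were 9.25 to 40.5, 6.19 to 41.0, 6.68 to 35.85 and 2.24 to 47.1. Each of these intervals holds the 12.2% of all coding genes.

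Against the share of 12.2% of all coding genes, none of 179 chemoreceptor, 136 cuticle protein and 31 gut serine protease genes had a single-direction promoter peak in the main list (upper bounds of the 95% Wilson intervals 2.10%, 2.75% and 11.0%). The replicates' own lists held 1 chemoreceptor gene, in replicate 3, and cuticle genes numbering 2 and 1 in replicates 1 and 2. Genes of the chemoreceptor, cuticle and gut protease lists are short, with medians of 1691, 909 and 911 bp and means of 1.11, 1.09 and 1 TSSs. Of all genes up to 2 kb 5.94% had a peak, and of genes with 1 TSS 7.74%. The chemoreceptor and cuticle bounds are below both shares, whereas the gut protease bound is above both. Cytochrome P450 genes had 5 of 83 (6.02%, interval 2.60 to 13.3, which holds 12.2%), led by Cyp6u1 (616), Cyp310a1 (432), Cyp317a1 (376) and Cyp6v1 (353), each found in every replicate. Odorant binding proteins had 3 of 51 (5.88%, interval 2.02 to 15.9, which also holds it), Obp83g, Obp83cd and Obp99b.

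**Figure D5:**
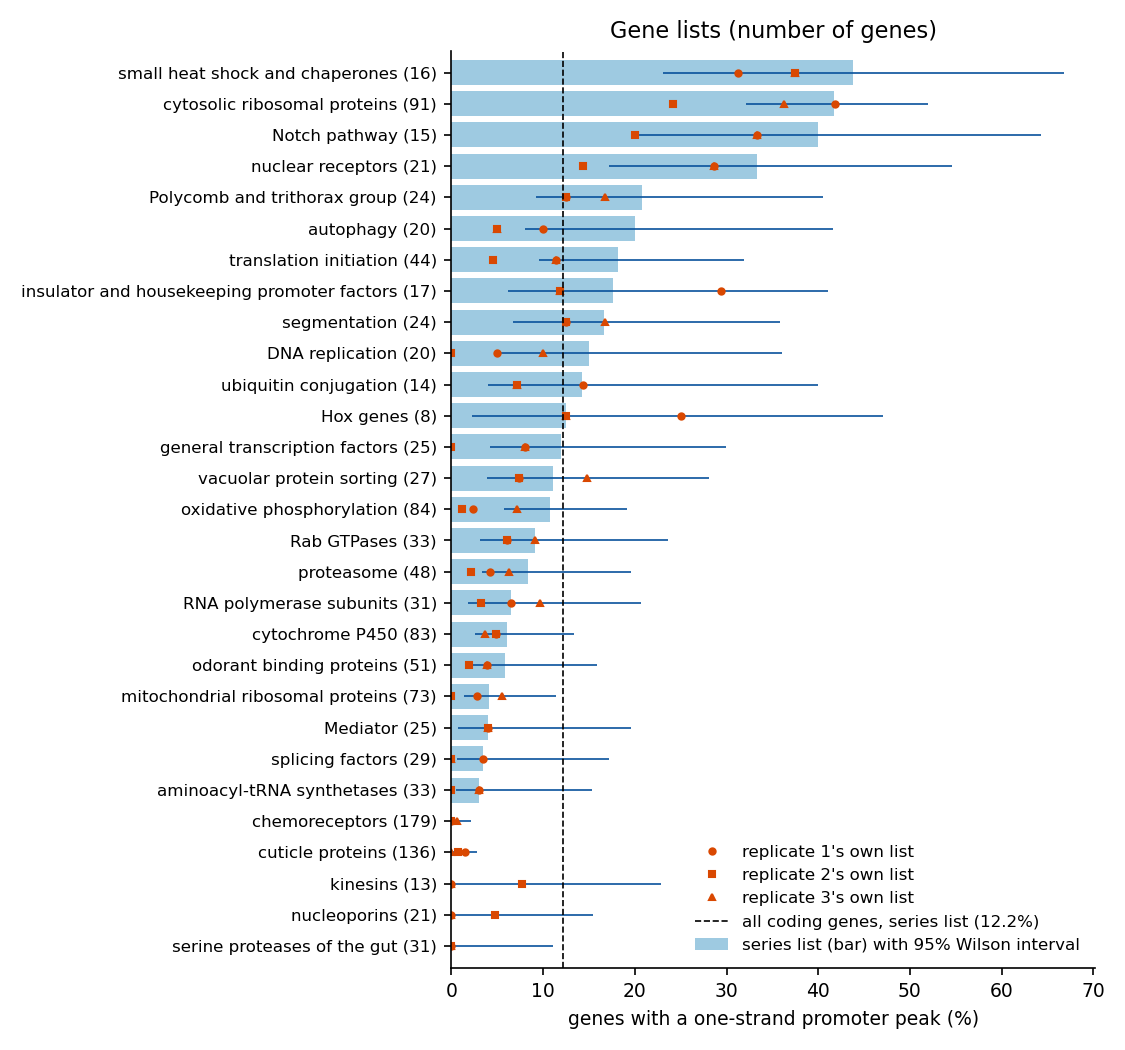
Share of each gene list with a peak at a single-direction coding promoter in the series list (bars, 95% Wilson intervals) and in each replicate's own list (points), with the share of all coding genes, 12.2%, as a dashed line. Small heat shock proteins and chaperones, cytosolic ribosomal proteins, the Notch pathway and nuclear receptors have their whole intervals above that line.

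Some genes were bound at several of their promoters. Of the 1697 genes, 1321 had 1 peak, 335 had 2, 33 had 3, 7 had 4 and 1 had 5, and 108 genes kept 2 or more when peaks that overlap a stronger one were left out. Rtnl1 had the most, a gene of 7 TSSs that encodes the reticulon protein of the endoplasmic reticulum. Along the arm its 5 peaks had signals of 958, 397, 129, 533 and 204, of which those of 958, 397 and 533 were found in every replicate. The peak of 129 overlaps that of 397, so 4 separate peaks remained. Ptpmeg2, which encodes a tyrosine phosphatase, had signals of 514, 624 and 512 at 3 promoters with summits 193, 192 and 206 bp upstream, each found in every replicate, and a weaker peak (179) 108 bp downstream.

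The cAMP phosphodiesterase gene dnc had 4 separate peaks with signals of 756, 276, 629 and 211, at 315, 279, 261 and 326 bp upstream of different TSSs of a gene of 167328 bp. Svil, with 16 TSSs, had 4 separate peaks of which those of 493 and 407 were found in every replicate and those of 96.1 and 99.4 in none. Moe, for the actin linker moesin, had signals of 431, 317, 62.9 and 293, and the peak of 62.9 overlaps that of 317. The formin gene capu and sktl, a phosphatidylinositol kinase gene, each had 4 peaks of which 2 remained without overlapping neighbours, and mtgo had 4 of which 3 remained. At sktl no peak was found in every replicate. Among the 33 genes with 3 peaks, the highest signals were 1154 at cu, 897 at Fkbp14, 865 at spi, which encodes the EGF receptor ligand spitz, and 860 at CG42268, and each of these genes also had a peak of 101.2 or less.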

How the data were processed

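ChIP-seq peak lists of 3 replicates of 1 group were used, 14 lists in all. The reads were not analysed. The authors mapped reads to dm6 and called peaks against a control, per the file listings. Which peak caller was used is not given in the sources used here. The peak signal is the authors' deposited score. The −log10 of the irreproducible discovery rate (IDR) deposited by the authors is at least 2 in the thresholded lists, an IDR of up to 0.01. The main list is the conservative one. Identical lines show that it compares replicates 1 and 3 (78.6% and 90.6% of the lines of its inputs), and its intervals come from all alignments.

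Of 8536 lines, 7819 distinct intervals remained with the summit of the strongest line, 7804 of them on arms 2L, 2R, 3L, 3R, 4 and X. The annotation was Ensembl release 115, and every peak ended inside its arm in the release 6 assembly. Promoter classes used TSSs within 500 bp. Dropped for an ncRNA TSS were 115 summits with coding TSSs on 1 strand and 19 with coding TSSs on both strands. A coding gene's peaks count all members within 500 bp of any of its TSSs. Elements were searched on both strands within 50 bp of the summit and in equal windows 250 bp to each side, 18 in all. Replicate values come from each replicate's own thresholded list, as mean ± SD, and were compared by exact sign-flip permutation tests. Wilson intervals cover counting error only.

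The members, gene lists and elements were chosen with earlier results of these data known. Genes named are those of the 20 strongest members found in every replicate, up to 4 of the strongest per gene list, genes with 3 or more member peaks, and, named after their values were seen, the strongest peaks at and after the TSS. Alternatives were other replicate pairs, the pooled list, a stricter IDR, recurrence, TSS limits, ncRNA TSSs kept and every line counted. Others were promoters with a single TSS, flank and window sizes, the overlap rule and, added after seeing the data, peaks without a stronger neighbour. Scripts ran in Python 3.11.15 with numpy 2.4.6, pandas 2.3.3 and scipy 1.17.1, and were tested on simulated summits and motifs. Some results are not reported here.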

Additional observations from a re-analysis of the deposited data

How the results depend on the processing

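Without read numbers, depth cannot be compared between replicates, and the exact sign-flip test over 3 replicates cannot pass a threshold of 0.05. The main list compares replicates 1 and 3, so the list without replicate 2 is the main list itself and gives 1 end of each range with a replicate left out. The number of peaks was 2059 in the main list, 1220 at an IDR of 0.001 or less and 768 for peaks found in every replicate, and 1066 to 2059 with a replicate left out. The difference from other peaks in the percentage found in every replicate was 0.5721 points, and it was 2.686 in the pooled list, -1.681 with a TSS limit of 250 bp and 0.5721 to 3.498 with a replicate left out. The percentage of ribosomal protein genes was 41.76 in the main list, 30.77 at the stricter IDR, 17.58 for peaks found in every replicate, 57.14 and 26.37 with TSS limits of 250 and 1000 bp, and 27.47 to 41.76 with a replicate left out. The cause of these shifts was not tested. In the alternatives run, 6 other results kept their direction. Of these, 3 moved in size by over 1.5 times. The signal difference from pairs was -43.45, against -112.2 with a TSS limit of 250 bp and -11.12 for peaks found in every replicate. The GC dip was -7.498 points, against -12.69 for peaks found in every replicate. The DRE excess over flanks was 1.748 points, against 0.3906 for peaks found in every replicate and 4.614 with wider windows. The upstream share (74.43% to 89.71%), the higher signal upstream than at the TSS (81.15 to 122.5) and the DRE excess at the TSS over upstream (6.112 to 9.779 points) moved by less.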
